A study of Homo sapiens with 9 samples.

Results

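The EGF receptor family, its ligands and its inhibitors were examined in 786-0 cells. The 10 genes EGFR, ERBB2, ERBB3, TGFA, AREG, EREG, HBEGF, BTC, ERRFI1 and LRIG1 were chosen by name among the 58735 genes of the count table. 786-0 is a human clear cell renal cell carcinoma (ccRCC) line in which VHL is defective and HIF1α is inactive, so that HIF2α, encoded by EPAS1, is the active hypoxia-inducible factor. RNA was sequenced from 3 groups of 3 replicates each, giving 9 libraries: untreated 786-0 WT cells (control), the same WT line given PT2385 at 10 μM, a small molecule that blocks the pairing of HIF2α with its partner, and untreated HIF2α knockout cells (KO). All cells were kept for 48 h at 21% O2 in DMEM holding 5 mM glucose and 10% FBS. How the KO line was made, whether it is 1 clone and whether the control cells received a vehicle are not given in the sources used here. Nothing states that replicates came from separate cultures, so p-values measure only the spread between these samples, which may be technical.

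EGFR is a receptor tyrosine kinase that pairs with itself or with ERBB2 or ERBB3 when a ligand binds. TGFα, amphiregulin (AREG), epiregulin (EREG), HB-EGF and betacellulin (BTC) are made as membrane-anchored precursors that metalloproteases of the ADAM family release from the cell surface. ERRFI1 (also called MIG6) binds the active kinase and LRIG1 promotes receptor degradation, and both act as feedback inhibitors. In VHL-defective renal carcinoma, TGFA is a long-known target of HIF2α and forms an autocrine loop with EGFR.

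Total counts ranged from 11881000 to 14730081 per library, with medians of 12055602 in control, 13303063 in PT2385 and 14430108 in KO. EPAS1, the gene targeted in the KO line, was measured at 271, 265 and 233 CPM in the control libraries, 248, 248 and 219 in PT2385, and 20.3, 25.0 and 21.1 in KO, so that every KO library was far below the others. Its level in KO was 8.63% of that in control. The 7 markers of renal carcinoma epithelium were counted in every group, and the 6 markers of other cell types (PTPRC, PECAM1, CDH5, MLANA, ALB and DES) summed to 2 counts or fewer in each library. CPM is a gene's count scaled to a common library size, here with edgeR's TMM factors. In bulk RNA, fewer cells with a transcript and less transcript per cell cannot be told apart.

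The main comparison asked how the receptor system responded to 48 h of PT2385 and whether loss of HIF2α gave the same pattern. With PT2385, transcripts of both inhibitors, of TGFA and of EGFR fell, and those of AREG, EREG and HBEGF rose. In KO, both inhibitors and TGFA fell as well, whereas AREG and EREG were lower than in control. The few counts of BTC were higher in KO. Of the members, 8 had enough counts for the test of PT2385 against control and 7 of them passed an adjusted p of 0.05 in edgeR's quasi-likelihood test, 3 higher and 4 lower. Over all 15089 genes tested in that comparison 7.7% passed, 3.08% higher and 4.62% lower. In that comparison the replicate numbers were taken to pair the libraries. With the replicate block the number of all genes called rose from 1162 to 2305, with the same 7 member calls. Unless stated, printed p-values and omissions are from fits without the block. BTC entered the comparisons with KO only through the KO libraries and is not counted among the calls. Of the other 8 tested members, KO against control called 5, all lower, beside 30.1% of 15192 genes, 14.7% higher and 15.4% lower. KO against PT2385 called 3 of these 8, all lower, beside 18.8% of 15402 genes, 8.47% higher and 10.3% lower.

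**Figure D1:**
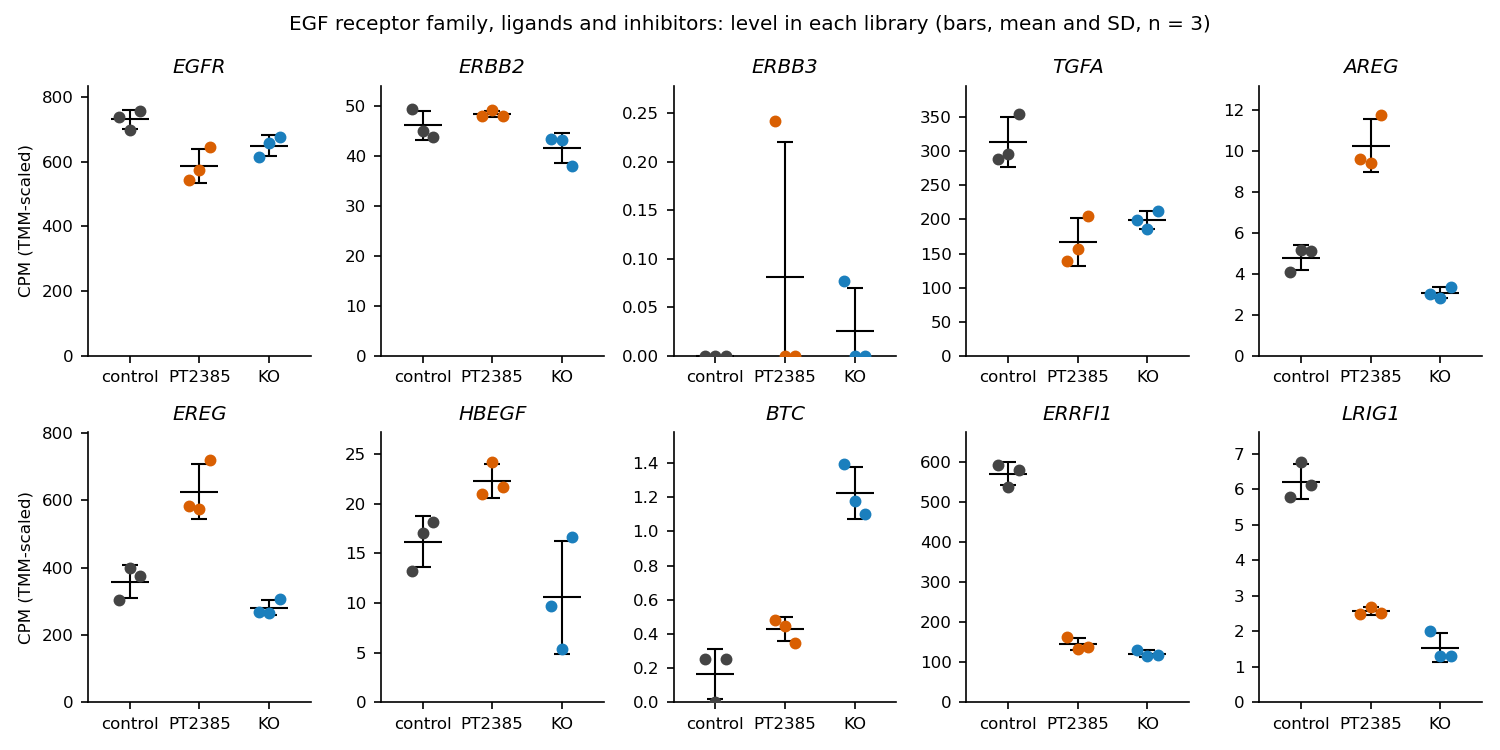
Level of each of the 10 genes in the 9 libraries, in TMM-scaled CPM on a linear axis that starts at 0. Points are libraries, horizontal lines are group means and whiskers are SDs (n = 3). In ERRFI1 and LRIG1 all control points lie above all others, and in AREG and EREG all PT2385 points do.

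EGFR (ENSG00000146648, chr7:55019017-55211628, plus strand, GRCh38) was the most abundant receptor. It was counted at 736, 698 and 757 CPM in the control libraries, 542, 574 and 644 in PT2385, and 614, 658 and 676 in KO. Every control value was above every PT2385 and KO value, and the PT2385 and KO ranges overlapped. EGFR fell by 0.32 on the log2 scale with PT2385 (SE 0.0671, edgeR adjusted p = 0.0125, and 1.59e-04 with the replicate block). In fits without the block, that call was lost without control replicate 1 (adjusted p = 0.0548), control replicate 3 (0.0628) or PT2385 replicate 2 (0.0761). In KO, the log2 difference from control was -0.16 (95% interval -0.29 to -0.02, adjusted p = 0.0725), and it passed the threshold without KO replicate 3 (-0.18, adjusted p = 0.0280). Between KO and PT2385 the log2 difference was 0.14 (-0.02 to 0.31, adjusted p = 0.227).

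ERBB2 (ENSG00000141736, chr17:39687914-39730426, plus strand), the partner receptor with no ligand of its own, did not pass the test in any of the 3 comparisons. Its levels were 49.5, 45.2 and 43.9 CPM in control, 48.1, 49.2 and 48.1 in PT2385, and 43.5, 43.3 and 38.1 in KO. The control and PT2385 libraries overlapped, and all KO values were lower than those of the other groups. The log2 difference was 0.07 for PT2385 against control (95% interval -0.09 to 0.23, adjusted p = 0.667), -0.14 for KO against control (-0.32 to 0.05, adjusted p = 0.255) and -0.22 for KO against PT2385 (-0.40 to -0.04, adjusted p = 0.0862). ERBB2 overlaps PGAP3 and MIEN1 on the opposite strand, which had 889 and 1487 counts over the 9 libraries against 5343 for ERBB2. The sources used here do not state whether counting used strand, and without it reads from such pairs cannot be told apart.

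ERBB3 (ENSG00000065361, chr12:56076799-56103505, plus strand), the neuregulin receptor with little kinase activity, was at or near 0. It had 0 counts in all control libraries, 3, 0 and 0 in PT2385 and 1, 0 and 0 in KO, and was not tested. A count of 0 allows up to 3 counts in a library, so a level below that was not detectable at this depth.

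Among the ligands, TGFA (ENSG00000163235, chr2:70447284-70554193, minus strand) fell in both HIF2α-impaired groups. It stood at 288, 295 and 355 CPM in control, 139, 157 and 206 in PT2385, and 199, 186 and 212 in KO. All control values were above all PT2385 and KO values, and PT2385 and KO overlapped. TGFA was 1.88-fold lower with PT2385 (log2 -0.91, SE 0.124, edgeR adjusted p = 6.15e-04) and 1.56-fold lower in KO (log2 -0.64, SE 0.0829, adjusted p = 1.76e-04). Both calls held without each library in turn. KO exceeded PT2385 by 0.25 on the log2 scale (95% interval -0.02 to 0.53, adjusted p = 0.200), which passed only when PT2385 replicate 3 was left out (0.44, adjusted p = 0.00595) among omissions of 1 library. TGFA-IT1, a non-coding RNA inside a TGFA intron on the same strand, fell with PT2385 by 1.49 on the log2 scale (adjusted p = 0.0121).

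EREG and AREG lie next to each other on chromosome 4 and rose together with PT2385. Their starts are 80.0 kb apart, and the start of BTC lies 429 kb from that of EREG. EREG (ENSG00000124882, chr4:74365145-74388749, plus strand) was counted at 303, 398 and 375 CPM in control, 581, 574 and 718 in PT2385, and 269, 266 and 306 in KO. AREG (ENSG00000109321, chr4:74445136-74455005, plus strand) was much scarcer, at 4.11, 5.19 and 5.11 CPM in control, 9.62, 9.43 and 11.8 in PT2385, and 3.02, 2.85 and 3.37 in KO. For both genes every PT2385 library was above every other library. The KO libraries of AREG were all below the control libraries, whereas for EREG KO replicate 3 overlapped control replicate 1.

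With PT2385, EREG was 1.74-fold higher (log2 0.80, SE 0.104, edgeR adjusted p = 4.28e-04) and AREG 2.13-fold higher (log2 1.09, SE 0.159, adjusted p = 9.80e-04). These calls held without each library in turn. In KO the same genes were lower than in control, EREG by a log2 change of -0.34 (SE 0.0952, adjusted p = 0.0194) and AREG by -0.63 (SE 0.186, adjusted p = 0.0257). Both KO calls were lost without control replicate 2 (adjusted p = 0.0943 for EREG and 0.0942 for AREG), control replicate 3 (0.0737 and 0.0813), KO replicate 1 (0.0745 and 0.0710) or KO replicate 2 (0.0545 and 0.0736), and that of AREG also in DESeq2 (0.0830). Compared directly, KO was 2.23-fold lower than PT2385 for EREG (log2 -1.16, SE 0.0965, adjusted p = 1.87e-05) and 3.34-fold lower for AREG (log2 -1.74, SE 0.168, adjusted p = 5.54e-05), and both held without each library in turn.

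The 250 bases upstream of the RefSeq starts (GRCh38.p14) are shown for the 3 linked ligands and for ERRFI1, the member with the lowest adjusted p against control. They lie outside annotated exons. Capitals mark the letters searched on both strands, namely ACGTG and GCGTG, the core letters that HIF binds, and TGACGTCA, the full cyclic AMP response element. Position -1 is the base before the start. The windows are chr4:74364895-74365144 (plus strand) for EREG, chr4:74444886-74445135 (plus strand) for AREG, chr4:74794524-74794773 (minus strand) for BTC and chr1:8026310-8026559 (minus strand) for ERRFI1, each written 5′ to 3′ on the gene's strand.
EREG: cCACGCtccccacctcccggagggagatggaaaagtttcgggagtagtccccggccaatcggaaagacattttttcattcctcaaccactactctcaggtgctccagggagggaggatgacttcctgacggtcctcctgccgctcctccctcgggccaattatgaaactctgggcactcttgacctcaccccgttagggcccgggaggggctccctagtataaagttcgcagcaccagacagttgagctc
AREG: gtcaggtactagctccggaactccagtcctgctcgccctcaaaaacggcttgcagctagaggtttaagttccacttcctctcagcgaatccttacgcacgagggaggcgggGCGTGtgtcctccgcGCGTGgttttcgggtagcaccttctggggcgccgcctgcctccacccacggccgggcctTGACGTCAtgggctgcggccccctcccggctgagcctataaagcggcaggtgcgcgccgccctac
BTC: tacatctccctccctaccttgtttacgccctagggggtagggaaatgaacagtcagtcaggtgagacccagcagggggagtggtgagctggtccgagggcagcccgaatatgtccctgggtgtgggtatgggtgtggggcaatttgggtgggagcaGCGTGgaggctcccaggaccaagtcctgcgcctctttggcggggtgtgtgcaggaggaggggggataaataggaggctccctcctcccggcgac
ERRFI1: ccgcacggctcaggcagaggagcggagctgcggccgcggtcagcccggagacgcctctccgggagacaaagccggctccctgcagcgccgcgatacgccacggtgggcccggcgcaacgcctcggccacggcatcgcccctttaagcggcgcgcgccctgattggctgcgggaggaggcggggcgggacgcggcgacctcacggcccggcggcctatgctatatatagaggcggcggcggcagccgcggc

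AREG held GCGTG at -139 to -135 and at -124 to -120, and TGACGTCA at -65 to -58. GCGTG stood at -94 to -90 in BTC and, on the opposite strand, at -249 to -245 in EREG, where it reads CACGC. The ERRFI1 window held none of the 3 strings, nor did those of EGFR and HBEGF, which also lie outside exons and are not printed. Of 35116 RefSeq promoter windows of this length, 43.2% held ACGTG or GCGTG (18.5% and 32.2% alone) and 1.65% held TGACGTCA. A match describes the letters of the window and not a bound site, and the absence of a match says only that these letters are not in it. RefSeq promoter entries matched 9 of the 10 members by symbol. The LRIG1 window, which held 3 matches, and the ERBB2 and TGFA windows overlap annotated exons and are not printed.

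Of the remaining protein coding genes around EREG, chosen after their values were seen, those that could be tested did not share the pattern of the pair. Within 1000 kb of the EREG start there are 41 annotated genes, of which 19 are protein coding. With PT2385, 9 of these could be tested, and beside EREG and AREG only CXCL5 was higher (log2 0.29, edgeR adjusted p = 0.0281) and CXCL8 was lower (log2 -0.64, adjusted p = 0.00478). In KO, BTC apart, 9 could be tested, with CXCL1 higher (log2 1.42, adjusted p = 0.0174) and EREG and AREG lower. Over all tested genes, 7.7% passed with PT2385 and 30.1% in KO. EPGN, another ligand gene in this window, had 1 count or fewer in each library and was not tested. CXCL1, CXCL5 and CXCL8 encode chemokines that attract neutrophils.

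**Figure D2:**
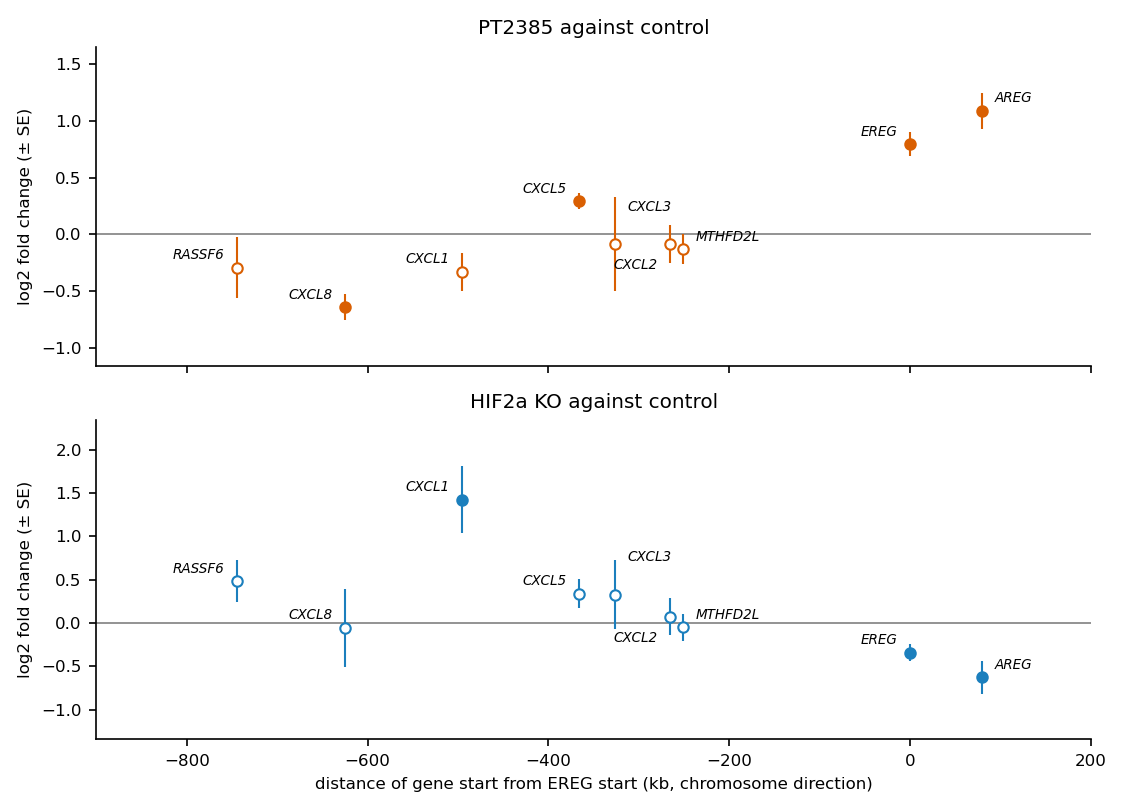
Log2 fold change of the tested protein coding genes by distance of the gene start from the EREG start (kb), for PT2385 (upper panel) and KO (lower panel) against control, with bars of 1 SE and filled points for adjusted p under 0.05. BTC is left out because control held 3 counts or fewer. EREG and AREG are above 0 with PT2385 and below 0 in KO, while the chemokine genes to their left scatter on both sides of 0.

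HBEGF (ENSG00000113070, chr5:140332843-140346603, minus strand), a ligand that also binds ERBB4, differed widely among the KO replicates. Its levels were 13.3, 17.1 and 18.2 CPM in control, 20.9, 24.2 and 21.7 in PT2385, and 9.67, 5.42 and 16.7 in KO. All PT2385 values were above all others, and among KO libraries only replicate 3 lay within the control range. HBEGF rose by 0.46 on the log2 scale with PT2385 (SE 0.123, edgeR adjusted p = 0.0412, and 0.00515 with the replicate block). In fits without the block, the call was lost without control replicate 1 (0.33, adjusted p = 0.154), control replicate 2 (0.51, adjusted p = 0.102) or PT2385 replicate 2 (0.39, adjusted p = 0.184). It was also lost with all 9 libraries in 1 fit (adjusted p = 0.365). KO differed from control by -0.60 (95% interval -1.25 to 0.06, adjusted p = 0.163). Without KO replicate 3 that difference was -1.10 (adjusted p = 9.33e-04). Against PT2385, KO had a log2 difference of -1.07 (SE 0.287, adjusted p = 0.0242), which was lost without PT2385 replicate 2 (adjusted p = 0.0907), without KO replicate 1 (0.0958) and in DESeq2 (0.0843).

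BTC (ENSG00000174808, chr4:74744759-74794523, minus strand) was nearly silent in control cells, with 3, 0 and 3 counts. PT2385 libraries had 6, 6 and 5 counts and KO libraries 18, 17 and 16. The 3 groups did not overlap. The mean KO level was 4.90-fold that of 3 counts per control library. As 3 is also the highest count seen in control, this is not a lower bound on the change. The fitted KO level was 2.83-fold that with PT2385. BTC passed the filter of 10 counts only through the KO libraries, where it is high, so no p is given, and it was not tested for PT2385 against control.

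The feedback inhibitor ERRFI1 (ENSG00000116285, chr1:8004404-8026309, minus strand) showed the largest change among the tested members in both HIF2α-impaired groups, BTC excepted. It was counted at 593, 538 and 581 CPM in control, 163, 134 and 139 in PT2385, and 131, 116 and 119 in KO. All PT2385 and KO values were far below all control values. ERRFI1 was 3.94-fold lower with PT2385 (log2 -1.98, SE 0.0783, edgeR adjusted p = 1.04e-08) and 4.63-fold lower in KO (log2 -2.21, SE 0.0695, adjusted p = 3.28e-09), which leaves 25.5% and 21.4% of the control mean. The log2 difference of KO from PT2385 was -0.25 and did not pass (95% interval -0.45 to -0.06, adjusted p = 0.0735). An antisense non-coding gene (ENSG00000284747) with overlapping exons had 279 counts over all libraries, against 31416 for ERRFI1.

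LRIG1 (ENSG00000144749, chr3:66378797-66501263, minus strand), the second inhibitor, fell in the same direction at a much lower level. Its levels were 5.79, 6.76 and 6.11 CPM in control, 2.50, 2.69 and 2.52 in PT2385, and 2.01, 1.32 and 1.31 in KO. The 3 groups did not overlap. LRIG1 fell by 1.27 on the log2 scale with PT2385 (SE 0.174, edgeR adjusted p = 5.98e-04) and, in KO, to 24.8% of the control mean (SE of the log2 change 0.217, adjusted p = 4.65e-05), and both calls held without each library in turn. KO against PT2385 gave -0.74 (95% interval -1.30 to -0.18, adjusted p = 0.0672), which passed without KO replicate 1 (-0.97, adjusted p = 0.0472). LRIG1 shares exonic positions with SLC25A26 on the opposite strand, which had 1551 counts against 391 for LRIG1 and did not pass in any comparison (log2 -0.04, -0.18 and -0.15).

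**Figure D3:**
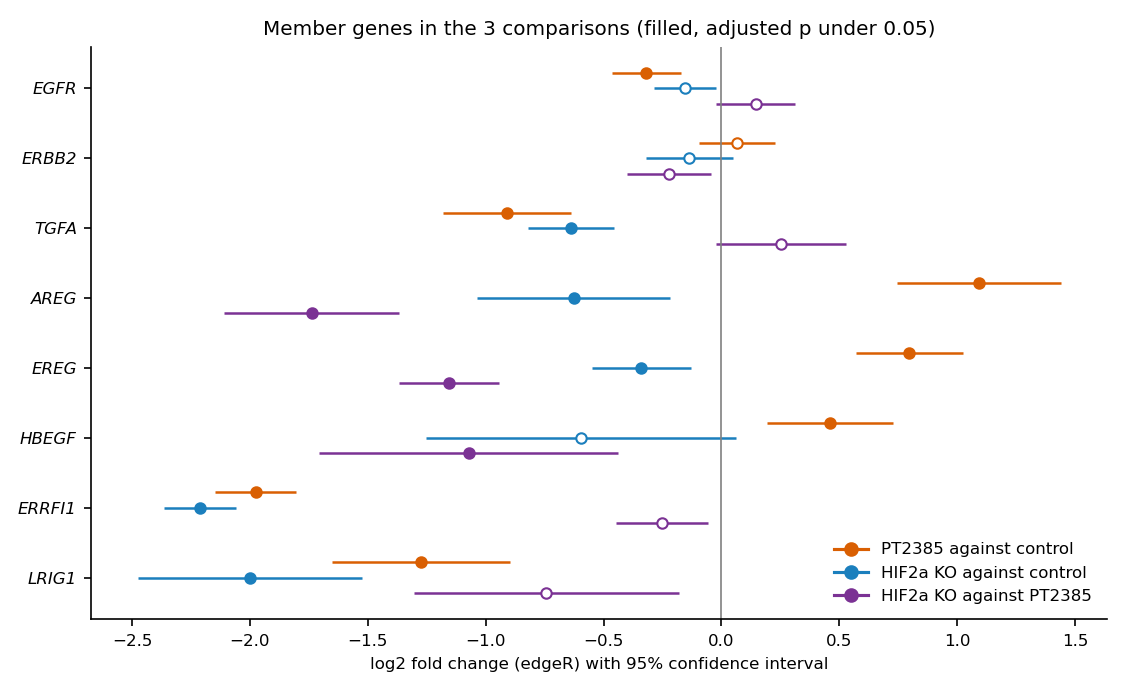
Log2 fold change of the members with its 95% confidence interval, for PT2385 against control, KO against control and KO against PT2385 (edgeR). Filled points passed an adjusted p of 0.05, and ERBB3 and BTC are not shown. ERRFI1, LRIG1 and TGFA lie left of 0 against control in both groups, whereas AREG and EREG lie right of 0 with PT2385 and left of 0 in KO.

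Levels of different genes were compared per length, as RPKM, the TMM-scaled CPM divided by the length of the merged exons in kilobases. In control the order was ERRFI1 (137), TGFA (63.6), EREG (62.8), EGFR (45.8), HBEGF (5.41), ERBB2 (4.48), AREG (2.93), LRIG1 (0.883), BTC (0.0632) and ERBB3 (0). Neighbours in this order whose control libraries overlapped were TGFA and EREG, HBEGF and ERBB2, and BTC and ERBB3. In PT2385 EREG led with 109 RPKM, and EGFR (36.8), ERRFI1 (34.8) and TGFA (33.9) followed with overlapping libraries. In KO EREG (49.1) was followed by EGFR (40.7) and TGFA (40.5), which overlapped, and ERRFI1 (29.2) was below them. With the length of the longest transcript in place of merged exons, the KO mean was 65.5 for EGFR and 60.8 for EREG. The order of EREG and EGFR in KO therefore depends on the length used.

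The make-up of the ligand transcripts differed between the groups, by a measure added after the values were seen. Of the summed RPKM of the 5 ligands, EREG made up 46.5 ± 3.21% in control, 69.6 ± 1.35% in PT2385 and 51.5 ± 1.10% in KO. TGFA made up 47.3 ± 3.38%, 21.5 ± 1.65% and 42.5 ± 1.19%. AREG made up 2.17 ± 0.0982%, 3.98 ± 0.0964% and 1.96 ± 0.00753%. The EREG share of every PT2385 library exceeded that of every other library. The summed RPKM was 135 ± 14.6 in control, 157 ± 21.7 in PT2385 and 95.5 ± 8.42 in KO, so that the control and PT2385 libraries overlapped and the KO libraries lay below both.

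**Figure D4:**
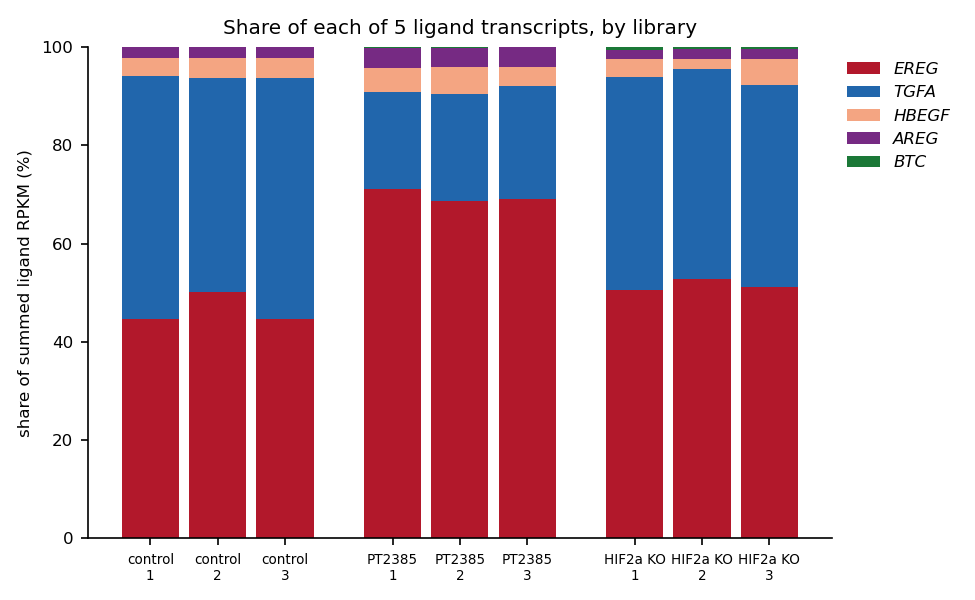
Share of the summed ligand RPKM (%) taken by each of 5 ligand transcripts, 1 bar per library. EREG takes 68.7% to 71.2% in the PT2385 libraries and 44.6% to 52.7% in the others.

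Ratios within a library do not depend on scaling between libraries. Per kilobase, EREG to TGFA was 0.905, 1.16 and 0.910 in the control libraries, 3.61, 3.16 and 3.01 in PT2385, and 1.16, 1.23 and 1.24 in KO. The receptor and its inhibitor also shifted, with ERRFI1 to EGFR at 3.07, 2.94 and 2.93 in control, 1.15, 0.891 and 0.824 in PT2385, and 0.815, 0.671 and 0.674 in KO. Both ratios separated PT2385 from control without overlap (exact two-sided permutation p = 0.1, the smallest that 3 against 3 allows; 0.124 after Benjamini-Hochberg adjustment over 21 such comparisons). AREG to EREG varied little within each group, at 0.0467 ± 0.00107 in control, 0.0572 ± 0.000306 in PT2385 and 0.0382 ± 0.000924 in KO.

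Beyond the members, 81 genes of the receptor's pathway were placed in 7 lists, chosen with earlier results of these data known. With PT2385, 12 of 70 tested genes passed, 8 higher and 4 lower, a share of 17.1% beside 7.7% of all genes. The median log2 fold change of the tested pathway genes was 0.05, beside 0.00 over all genes. With the replicate block 18 of the 70 passed, beside 2305 of all 15089 genes. In KO 33 of 70 passed, 22 higher and 11 lower (47.1% beside 30.1% of all genes, median log2 0.09). KO against PT2385 called 13 of 71, 5 higher and 8 lower (18.3% beside 18.8%, median -0.01). Leaving out each library in turn kept 5 of the 12, 22 of the 33 and 11 of the 13 calls throughout.

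Among 15 tested genes that ERK signalling is known to induce, PT2385 raised 5 and lowered 1 (40.0% called, beside 7.7% of all genes). CCND1, the cell cycle regulator cyclin D1 and a known HIF2α target, fell by 1.87 on the log2 scale (edgeR adjusted p = 8.99e-06). DUSP5, an ERK phosphatase, rose by 1.45 (adjusted p = 2.64e-04) and EPHA4, an ephrin receptor, by 0.61 (adjusted p = 0.00407). EGR1, an immediate early transcription factor, rose by 1.75 (adjusted p = 0.0467, and 0.00103 with the replicate block). In fits without the block, the EGR1 call was lost without control replicate 1 (adjusted p = 0.0549), 2 (0.190) or 3 (0.137) or PT2385 replicate 1 (0.102). In KO 5 of 15 rose and 2 fell (46.7% called, beside 30.1% of all genes). CCND1 had a log2 change of -2.03 (adjusted p = 5.67e-05). Higher were DUSP5 (1.31, adjusted p = 0.00836), the transcription factor ETV5 (0.76, adjusted p = 1.24e-04) and SPRED2, an inhibitor of RAF activation (0.52, adjusted p = 0.00125). ETV5 was also higher in KO than in PT2385 (0.40, adjusted p = 0.0115, lost without PT2385 replicate 2 at 0.0701), and SPRED1 was lower (-0.60, adjusted p = 3.58e-04).

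The 8 genes of ligand shedding were all tested, and those that passed were mostly lower in KO. With PT2385 only ADAM9 passed (12.5% of the list, beside 7.7% of all genes). Its log2 change was -0.41 (edgeR adjusted p = 0.00887), and the call was lost without control replicate 1 (adjusted p = 0.0519). In KO 4 fell and 2 rose (75.0% called, beside 30.1% of all genes). Those that rose were FRMD8 and ADAM15. Over omissions of 1 library FRMD8 rose by 0.29 to 0.34 on the log2 scale and kept its call. ADAM15 rose by 0.20 to 0.23, and its call was lost in 3 of the omissions. ADAM10, the main releasing protease of EGF and betacellulin, fell by 0.60 (adjusted p = 1.98e-05), as did RHBDF2, which carries ADAM17 to the surface (-0.60, adjusted p = 5.44e-04), ADAM9 (-0.53, adjusted p = 2.28e-04) and ADAM12 (-0.46, adjusted p = 0.00190). ADAM10, ADAM12 and RHBDF2 were also lower in KO than in PT2385 (log2 -0.46, -0.55 and -0.59, adjusted p = 0.00473, 0.00182 and 0.00161).

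In the signalling lists, MAP2K1, which encodes the ERK kinase MEK1, fell in both groups. Its log2 change was -0.45 with PT2385 (edgeR adjusted p = 0.00801, lost without control replicate 2 at 0.0527 or PT2385 replicate 2 at 0.0521) and -1.20 in KO (adjusted p = 3.80e-06), and KO differed from PT2385 by -0.78 (adjusted p = 6.31e-04). It was the single call among 10 tested genes of the RAS-ERK cascade with PT2385, and in KO MAP2K2 was the other (0.36, adjusted p = 6.77e-04). Of 10 tested PI3K-AKT genes, PIK3R3, a regulatory subunit, rose with PT2385 (0.78, adjusted p = 8.02e-04) and in KO (0.62, adjusted p = 0.00927). In KO 3 of these genes rose and 3 fell (60.0% called, beside 30.1% of all genes), with the catalytic subunit PIK3CD lower (-0.64, adjusted p = 4.60e-04). PIK3CD was lower than with PT2385 too (-0.55, adjusted p = 0.00710).

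With PT2385, 0 of 10 tested receptor adaptors passed in edgeR, where 2 had an unadjusted p under 0.05, and 0 passed in DESeq2. With the replicate block 2 passed, GRB2 (0.18, adjusted p = 0.0225) and PLCG1 (0.16, adjusted p = 0.0474). In KO 4 rose (40.0%, beside 30.1% of all genes). Among them were GAB1, a docking protein (0.85, adjusted p = 9.90e-04), and the transcription factor STAT3 (0.37, adjusted p = 8.36e-04). Both were above PT2385 as well (1.03, adjusted p = 0.00382, and 0.34, adjusted p = 0.00460). The others were GAB2 (0.30, adjusted p = 0.0440) and SRC (0.24, adjusted p = 0.0220). GAB2 was lost without control replicate 1 (adjusted p = 0.145), 2 (0.0833) or 3 (0.0954) or KO replicate 1 (0.0987) or 2 (0.105), and SRC without control replicate 2 (0.110) or 3 (0.0921) or KO replicate 1 (0.0687).

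Among 15 tested genes of receptor turnover and restraint, 3 passed in edgeR with PT2385, 2 higher and 1 lower, beside 7.7% of all genes. DESeq2 called 2 of the 15. CAV1, the membrane protein caveolin-1, fell by 0.44 (edgeR adjusted p = 0.00136) and was higher in KO than in PT2385 by 0.47 (adjusted p = 0.00263). PTPRJ, a receptor phosphatase, rose by 0.43 (adjusted p = 0.0229, lost without control replicate 2 at 0.128 or 3 at 0.0745) and RNF41, a ubiquitin ligase for ERBB3, by 0.29 (adjusted p = 0.0392, lost without control replicate 2 at 0.174 or 3 at 0.128 or PT2385 replicate 1 at 0.0553 or 2 at 0.139). In KO 5 rose and 1 fell (40.0% called, beside 30.1% of all genes), with RNF41 (0.44, adjusted p = 0.00167), SOCS5 (0.31, adjusted p = 0.00743) and SH3KBP1 (0.27, adjusted p = 0.00926) higher. USP8, a deubiquitinase of internalised EGFR, fell by 0.60 (adjusted p = 5.66e-05) and differed from PT2385 by -0.59 (adjusted p = 0.00202).

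Of 7 further family genes only EGF and NRG1 had enough counts to be tested. With PT2385, 0 of the 2 passed in edgeR, where 1 had an unadjusted p under 0.05, and 0 passed in DESeq2, while with the replicate block EGF passed (0.59, adjusted p = 0.0394). EGF rose in KO by 0.88 (edgeR adjusted p = 0.00563), and NRG1, a ligand of ERBB3 and ERBB4, by 0.27 (adjusted p = 0.0375). The NRG1 call was lost without control replicate 1 (adjusted p = 0.151) or 3 (0.118) or KO replicate 1 (0.0884) or 3 (0.0606). ERBB4 had 0 counts in all 9 libraries.

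**Figure D5:**
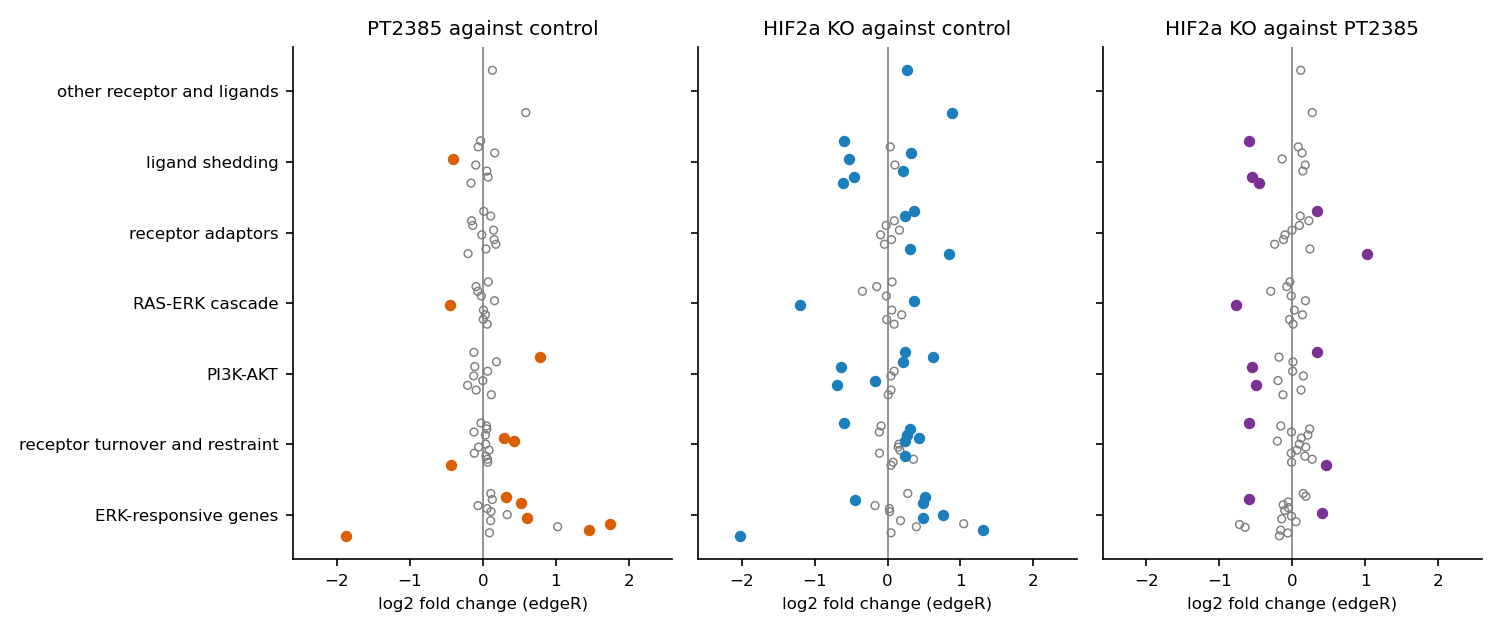
Log2 fold change (edgeR) of every tested gene in the 7 pathway lists, 1 point per gene, in the 3 comparisons. Coloured points passed an adjusted p of 0.05 and grey circles did not. The point farthest left against control in both groups is CCND1 (-1.87 and -2.03).

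Genes whose levels followed a member most closely were sought over the 9 libraries among 10140 genes with a mean of at least 100 counts. For ERRFI1 these were NDRG1 (Pearson's r = 0.995), a HIF-responsive gene, and APOL1 (0.992), and for EREG the nearest was ATG4B (0.990). EGFR was nearest to RAB22A (0.984) and MGLL (0.960), TGFA to LRRC41 (0.979) and SVIL-AS1 (0.978), HBEGF to SLC66A2 (0.977) and PRR7-AS1 (0.973), and ERBB2 to PITPNM1 (0.984) and VPS39 (0.973). These values describe 9 libraries that share 3 groups and are the highest of many. NDRG1 itself fell by 3.54 on the log2 scale with PT2385 (edgeR adjusted p = 6.84e-10) and by 3.74 in KO (adjusted p = 2.82e-09).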

How the data were processed

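RNA of 9 libraries of 786-0 cells (control, PT2385 and KO, 3 replicates each) was sequenced. The authors trimmed reads with cutadapt, aligned them with STAR to GRCh38 and deposited 1 table of whole-number gene counts from featureCounts, not normalised. Tool versions, the annotation release and whether counting used strand are not given in the sources used here. All 9 columns were mapped to samples by name, leaving 0 unmapped. Of 58735 gene identifiers, 58207 were paired with GENCODE release 44, which supplied symbols, coordinates and merged exon lengths.

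Each pair of groups was fitted separately with edgeR 4.0.16 in R 4.3.3 (TMM scaling, filterByExpr with a minimum of 10 counts, quasi-likelihood test). Adjusted p is the Benjamini-Hochberg value over all genes tested, called at 0.05. CPM values use TMM-scaled library sizes, and RPKM divides them by merged exon length. Totals of 11881000 to 14730081 counts set the precision. Counts are reads and not molecules, so the floor of 3 counts covers counting error only. The script was checked on simulated counts at the same threshold. There 7.58% of calls were false for PT2385 against control, 9.04% for KO against control and 10.5% for KO against PT2385. Of simulated 2-fold changes, 86.6%, 80.4% and 81.1% were recovered.

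The members and gene lists were chosen with earlier results of these data known. Named genes were the members, EPAS1, up to 4 called genes per pathway list and comparison with the largest changes and any called in opposite directions, the 2 genes most correlated with each member of at least 100 mean counts (log2 CPM, prior count 1), and genes overlapping a named gene. Neighbours of EREG, ligand shares and within-library ratios were chosen after the values were seen. The comparison of PT2385 and KO with control shares the control libraries.

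Same-numbered libraries of PT2385 and control deviated together from their group means (every r at least 0.137 over 10140 genes), so the replicate numbers were taken to pair the samples in that comparison. The numbers come from the sample titles. In the comparisons with KO the lowest r was 0.0556 and 0.0912, and the numbers were not taken to pair. The limit on r that divides these comparisons is a choice. Alternatives were scaling by RLE factors, by the upper quartile or by totals alone, fitting without the filter, keeping only genes that reached 10 counts in all libraries, the replicate block, 1 fit of all libraries, DESeq2 1.42.0, omission of each library, and longest-transcript lengths. Promoter windows (250 bases) came from RefSeq GRCh38.p14. Some genes that the naming rule selects are not reported here.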

Additional observations from a re-analysis of the deposited data

Results flagged for a closer look

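In 3 members the change in KO and the change with PT2385 differed by the direct test of KO against PT2385. Both changes were measured against the same control libraries. The direct test was edgeR's quasi-likelihood test (adjusted p under 0.05, 3 libraries each), which 18.8% of all 15402 genes passed. AREG was called higher with PT2385 and lower in KO, and the difference between them was -1.74 on the log2 scale, with all 3 KO libraries below all 3 PT2385 libraries. EREG had the same opposed pattern, with a difference of -1.16 and no overlap between KO and PT2385. For both genes the call in KO against control was lost in 4 omissions of 1 library, and for AREG also in DESeq2. The KO and control libraries of EREG overlapped. HBEGF was called higher with PT2385 and not called in KO, with a difference of -1.07 and no overlap. Its call with PT2385 was lost in 3 omissions of 1 library and with all 9 libraries in 1 fit. Its call in KO against PT2385 was lost in 2 omissions and in DESeq2. PT2385 acted for 48 h on WT cells, whereas the KO line is a separate line, so the agent, the duration and the line cannot be told apart here.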

How the results depend on the processing

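No member or named pathway gene changed direction under any alternative in which it was tested. Of 362 alternative values of the members, 327 stayed on their side of the threshold, 22 lost a call and 13 gained one. These totals include BTC in the comparisons with KO, although BTC is not counted among the calls above. For BTC 13 values stayed in KO against control, and in KO against PT2385 10 stayed and 3 were lost. Of 811 values of pathway genes that were called, 726 kept the call and 85 lost it. For PT2385 against control the replicate block raised the number of all genes called from 1162 to 2305, and omission of 1 library gave 574 to 1451 genes and 6 to 13 pathway genes in place of 12. For KO against PT2385, omission gave 1836 to 3190 genes in place of 2897, and DESeq2 called 2 members (AREG and EREG) in place of 4, BTC included in the latter. Longest-transcript lengths kept the rank of 6 of the 10 members in control and placed EGFR above EREG in KO. The cause was not tested.

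In the comparisons with KO the samples share only a number. There the replicate block added calls for EGFR (-0.16, adjusted p = 0.0337) and HBEGF (-0.66, adjusted p = 0.0425) against control, and for TGFA (0.27, adjusted p = 0.0333) and ERRFI1 (-0.25, adjusted p = 0.0105) against PT2385, and it changed no other member call. In these comparisons 5 of 6 and 4 of 6 libraries correlated best with the library of their own number, against 6 of 6 for PT2385 and control. ERRFI1 and TGFA were also called against PT2385 with no filter (adjusted p = 0.0304 and 0.0253), ERRFI1 and LRIG1 with all libraries in 1 fit (0.0391 and 0.0302), and HBEGF in KO with no filter (2.89e-04).

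With 3 libraries a group, an exact permutation test cannot go below 0.1. ERBB3 had too few counts for any test, and BTC was not tested where all libraries had to reach 10 counts.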

Other observations

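Among KO libraries, replicate 2 was lower and replicate 3 higher than the others in HBEGF, with 78 and 242 counts beside 125 in replicate 1. The chemokine gene CXCL8 had 301, 101 and 705 counts in KO replicates 1, 2 and 3, beside 302 to 347 in control, and CXCL1 had 178, 92 and 364, beside 60 to 79. DUSP5 had 22.3, 8.40 and 19.8 CPM in the same libraries. These genes were chosen after their values were seen, and no difference between single libraries was tested. Of the 7 markers of renal carcinoma epithelium, 3 passed the test with PT2385, 2 higher and 1 lower (42.9%, beside 7.7% of all genes). In KO against control 4 passed, 2 higher and 2 lower (57.1%, beside 30.1% of all genes).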
